A study of Mus musculus with 16 samples.

Results

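The 108 genes described here are the voltage-gated ion channel and potassium channel genes among the 14498 genes measured in single cells of the E15.5 mouse forebrain. They are all genes whose symbol starts with Kcn, Cacna, Cacnb, Cacng or Hcn, or with Scn followed by a number, so no measured value chose them. By role they fall into 13 groups. There are 7 sodium channel alpha and 3 sodium channel beta subunits, and 9 calcium channel alpha1, 3 alpha2delta and 4 beta subunits. The Cacng family has 7 members. Potassium channels make up most of the rest, with 30 alpha and 10 auxiliary subunits of voltage-gated channels, 9 genes of calcium- or sodium-activated channels, 11 inward rectifiers and 8 two-pore domain channels. There are 3 HCN channel genes and 4 other symbols, of which Kcnd3os, Kcnmb4os2 and Kcnq1ot1 are antisense transcripts in the GENCODE M21 annotation. The 108 genes hold 37304 of the 21609944 deduplicated counts (UMIs, each standing for 1 captured RNA molecule) of the matrix. A member has between 6 and 2458 UMIs with a median of 147.5, against a median of 533 over all genes, and 77 members reach 50 UMIs.

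Voltage-gated sodium channels carry the upstroke of the action potential, voltage-gated calcium channels couple depolarization to calcium entry, and potassium channels set the resting potential and end the spike. Most are built from pore-forming alpha subunits, which exist in several subtypes, with auxiliary subunits that govern trafficking and gating. In the embryonic cortex, radial glia divide at the ventricle, intermediate progenitors and migrating neurons leave it, and spiking appears as neurons settle. Inwardly rectifying and two-pore potassium channels carry the background potassium conductance of many cells, glia included.

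The cells came from CD1 wild-type mouse embryos at E15.5, and all 16 samples share this strain, genotype and source. The tissue is labelled forebrain, while the series describes it as cerebral cortex, and the cells include ganglionic eminence and striatal types. The number of embryos and litters is not given in the labels. Libraries were made with a droplet kit (SureCell, of Illumina and Bio-Rad) and deposited as 1 matrix of 5777 cells whose names carry no sample and no barcode, so all samples form 1 pooled sample, barcodes shared between libraries were not analysed here, and no replicate spread exists for any value.

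Cells had 1111 to 17398 UMIs with a median of 3258. The order of cells in the matrix gave a first run of 3651 and a second run of 2122 cells, with 4 between, and the labels name neither run. The first run ends at the last cell with a Y-linked UMI. The second starts at the first cell with a UMI of 11 genes that are listed out of alphabetical order. Whether the runs differ in sex or in gene reference was not tested. Values of both runs are given beside the results they touch. The 5773 cells left after 4 cells with over 10% globin UMIs were set apart formed 24 clusters, drawn without the channel genes, and clusters were named from marker lists that hold none of them. The excitatory series ran through 895 radial glia-like, 527 intermediate progenitor-like, 514 migrating excitatory neuron-like and 1276 excitatory neuron-like cells. The inhibitory side held 799 interneuron-like, 259 striatal neuron-like and 385 ganglionic eminence progenitor-like cells. Small classes were 71 Cajal-Retzius cell-like, 25 choroid plexus-like, 18 microglia-like and 29 meningeal fibroblast-like cells. Clusters 3, 12, 19 and 20 met no name and stay numbered, cluster 3 with Slc17a6, Tac2, Mfap4 and Neurod1 among its leading genes. Levels are CPM, a gene's UMIs in a class scaled to 1 common total of UMIs for every class, and intervals are exact 95% intervals that cover counting error only. A gene's CPM can be compared between classes but not with another gene's, since capture differs between transcripts. No test was possible with 1 pooled sample.

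Channel transcripts were most abundant in neurons and in Cajal-Retzius cell-like cells, the early-born Reln-secreting neurons of the marginal zone. Summed over all 108 genes they made up 877 CPM in radial glia-like, 1194 CPM in intermediate progenitor-like, 1656 CPM in migrating excitatory neuron-like and 2266 CPM in excitatory neuron-like cells. The intervals of these 4 classes do not overlap, running from 845 to 909 CPM in the first and from 2228 to 2305 CPM in the last, and the order was the same in both runs. On the inhibitory side the sum was 1972 CPM in interneuron-like and 1876 CPM in striatal neuron-like cells, against 920.1 CPM in ganglionic eminence progenitor-like cells. The highest sum of the named classes with at least 50 cells stood in Cajal-Retzius cell-like cells, at 3919.8 CPM. The interneuron-like sum differed between runs, at 1700 CPM in the first and 2602 CPM in the second run, and cluster 16, which expresses Sst, held 71 of 558 interneuron-like cells of the first run and 135 of 240 of the second. The part of that mix in the difference was not tested.

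**Figure D1:**
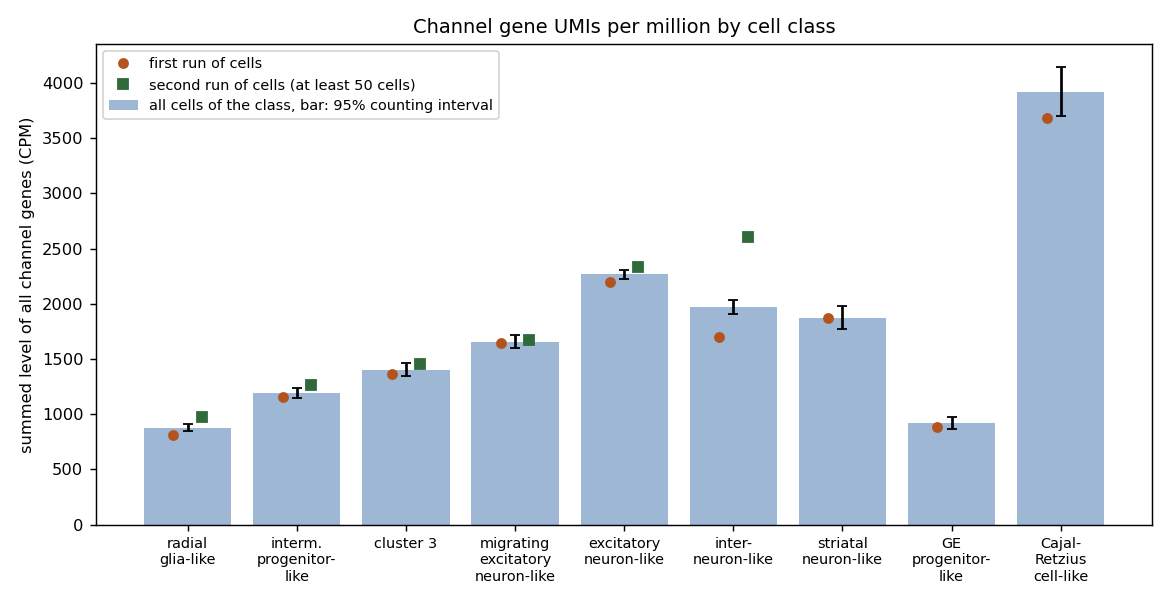
Summed level of the 108 channel genes (CPM, y axis) as bars in 8 named classes and cluster 3, with exact 95% Poisson intervals; circles and squares give the first and second run of cells where a class has at least 50 cells there. Radial glia-like and ganglionic eminence progenitor-like cells are lowest, at 877 and 920.1 CPM, and Cajal-Retzius cell-like cells highest, at 3919.8 CPM.

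Along the excitatory series the same order appeared cell by cell at a fixed depth, drawn from the same UMIs. Interneuron-like and striatal neuron-like cells changed places. After each cell was thinned to 1000 UMIs, with no cell left out, 54.7% of radial glia-like, 63.8% of intermediate progenitor-like, 78.2% of migrating excitatory neuron-like and 87.3% of excitatory neuron-like cells held at least 1 channel UMI. The mean number of channel UMIs per thinned cell in those 4 classes was 0.893, 1.13, 1.66 and 2.35. Interneuron-like and striatal neuron-like cells reached 79.7% and 83.8%, against 55.8% of ganglionic eminence progenitor-like cells, and Cajal-Retzius cell-like cells 98.6%. Without thinning the shares were 88.3%, 89.6%, 96.9% and 99.3% along the excitatory series, 92.9% in interneuron-like and 96.5% in striatal neuron-like cells against 85.2% in ganglionic eminence progenitor-like cells, and 100% in Cajal-Retzius cell-like cells. Free RNA in droplets can add UMIs to any class, and its part in these shares was not tested.

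Cacna1b (N-type calcium channel) was high in several neuron classes, with 79.7 CPM in excitatory neuron-like, 92.9 CPM in interneuron-like and 134 CPM in Cajal-Retzius cell-like cells. Kcnj10 (the glial inward rectifier Kir4.1) was high in radial glia-like and Kcnj13 (Kir7.1) in choroid plexus-like cells. The promoters of these 3 members are shown because the genes were high in different cells. Each is the 250 bases before the RefSeq transcription start on GRCm38.p6, 5′ to 3′ on the gene's strand, with CG dinucleotides in capitals.
Cacna1b promoter: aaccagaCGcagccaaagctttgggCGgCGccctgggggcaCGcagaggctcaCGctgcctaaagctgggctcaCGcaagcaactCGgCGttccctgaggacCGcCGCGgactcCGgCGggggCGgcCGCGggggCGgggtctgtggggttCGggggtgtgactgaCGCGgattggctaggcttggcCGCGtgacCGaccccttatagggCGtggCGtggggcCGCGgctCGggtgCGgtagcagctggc
Kcnj10 promoter: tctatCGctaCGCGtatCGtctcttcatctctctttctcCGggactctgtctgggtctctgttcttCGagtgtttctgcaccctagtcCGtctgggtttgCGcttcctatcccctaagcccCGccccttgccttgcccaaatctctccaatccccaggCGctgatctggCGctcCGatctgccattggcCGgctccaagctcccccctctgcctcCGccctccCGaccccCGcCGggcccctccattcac
Kcnj13 promoter: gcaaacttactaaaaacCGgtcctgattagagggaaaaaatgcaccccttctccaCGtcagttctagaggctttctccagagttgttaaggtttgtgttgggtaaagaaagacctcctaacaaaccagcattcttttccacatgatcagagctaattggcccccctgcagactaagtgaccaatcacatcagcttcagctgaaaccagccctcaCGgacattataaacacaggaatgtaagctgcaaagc
The Cacna1b stretch (chr2:24763153-24763402, minus strand) holds 29 CG dinucleotides and is 72% G or C. The Kcnj10 stretch (chr1:172340960-172341209, plus strand) holds 17, while the Kcnj13 stretch (chr1:87394730-87394979, minus strand) holds 3 and is 45.2% G or C. In 300 bases (250 before and 50 after the start) the median was 18 CG over the 77 members with a promoter in the RefSeq table, against 8 over its 27025 genes. A gene with several entries took its highest CG count. The 27025 include genes not among the 14498 measured here, so members were not set against measured genes alone. Of the 43 members at least 2-fold higher in excitatory neuron-like than in radial glia-like cells, 27 had a promoter in the table, with a median of 23 CG. Those at least 2-fold lower had a median of 19.5 over 4 promoters. Both medians lie above that of the table. The proneural E-box letters CAGCTG, read on both strands, were found for 24 of 77 members (31.2%), 8 of the 27 and 1 of the 4. They were found for 18.3% of all genes of the table. CAGATG was found for 15 of 77 members (19.5%) against 19.2% of all genes of the table, for 4 of the 27 and for 0 of the 4. These are letter matches and not binding sites.

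Excitatory neuron-like over radial glia-like cells compares the ends of the cortical series. A member counted as measured when both classes together held at least 50 of its UMIs. Of the 59 measured, 43 were at least 2-fold higher in excitatory neuron-like cells, and 4 were lower by 2-fold or more. The interval lay wholly above 2 for 36 of the 43. The share of such intervals was not computed over all genes, here or in the comparisons below. Of all genes measured, 15.1% were at least 2-fold higher and 19.4% lower. The median log2 ratio was 2.16 over the members and -0.15 over all genes. The other 49 members had too few UMIs, and a low gene could reach 50 UMIs through the class where it is high, so these counts describe the measured members only. All 47 members past 2-fold lay on the same side of 1 in both runs. So did 3605 in the first and 3604 in the second run of the 3610 genes of all kinds past 2-fold. The runs are parts of the summed counts that made the calls, so such agreement is no separate support. The interval of each of the 47 left out 1, as it did for every member past 2-fold in the other comparisons.

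**Figure D2:**
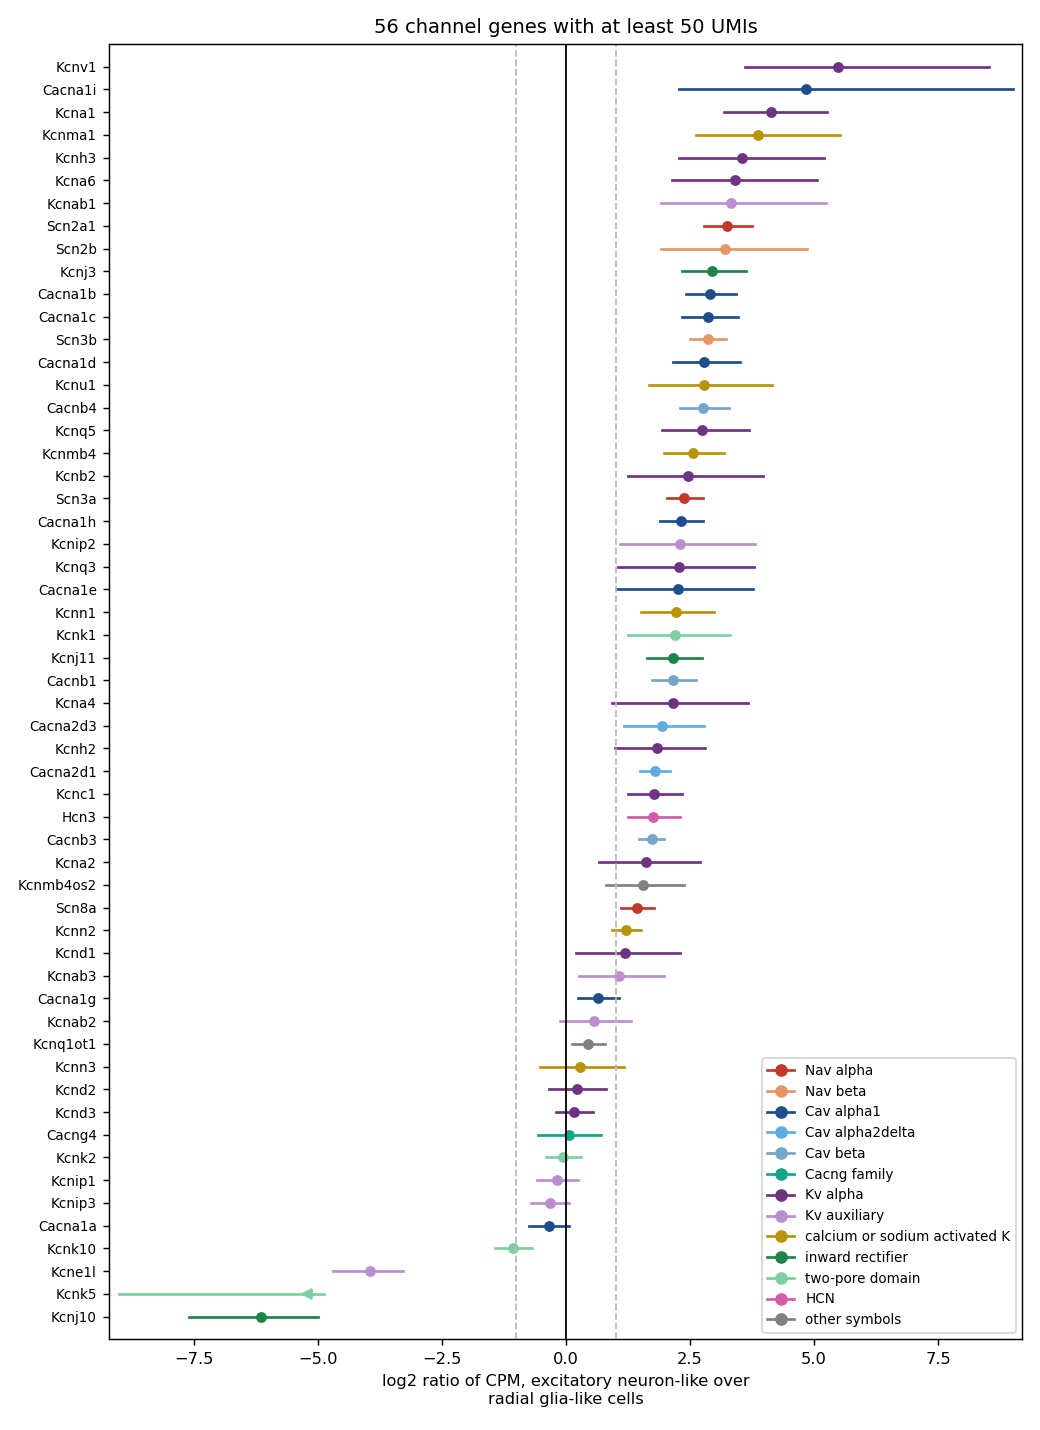
Ratio of CPM in excitatory neuron-like over radial glia-like cells (x axis, log2 scale) for 56 of the 59 members measured, sorted by ratio and coloured by role, with exact 95% intervals and dashed lines at 2-fold; the intervals of Cacna1i and Kcnk5 are drawn only to the edge of the plot. The triangle marks a bound for Kcnk5, which had 0 UMIs in excitatory neuron-like cells; 41 points lie past the line at 2-fold higher and 4 past that at 2-fold lower.

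All 3 sodium channel alpha subunits measured, Scn2a1, Scn3a and Scn8a, were at least 2-fold higher in excitatory neuron-like cells. Scn2a1, which encodes Nav1.2 (annotated as Scn2a, chr2:65620771-65767447), had 109.6 CPM in excitatory neuron-like and 11.6 CPM in radial glia-like cells, 9.47-fold (95% interval 6.85 to 13.4) higher. The ratio was 6.78 in the first and 11.1 in the second run. Scn3a (Nav1.3, the form best known from embryonic brain, chr2:65457118-65567627) lies beside it and had 109.9 CPM in excitatory neuron-like and 21.1 CPM in radial glia-like cells, 5.22-fold (95% interval 4.08 to 6.77) higher. Scn8a (Nav1.6) had 71.3 CPM against 26.4 CPM, 2.70-fold (95% interval 2.14 to 3.43) higher. Both beta subunits measured were also higher. Scn3b, the sodium channel beta subunit with the most UMIs, had 150.1 CPM in excitatory neuron-like and 20.8 CPM in radial glia-like cells, 7.23-fold (95% interval 5.66 to 9.36) higher, and Scn2b was 9.19-fold (95% interval 3.78 to 29.1) higher.

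Of 8 calcium channel alpha1 subunits, 6 were at least 2-fold higher and 0 lower. Cacna1b (Cav2.2, the N-type channel of presynaptic terminals) had 79.7 CPM in excitatory neuron-like and 10.7 CPM in radial glia-like cells, 7.47-fold (95% interval 5.31 to 10.8) higher. The L-type subunit Cacna1c (Cav1.2) had 65.1 CPM against 8.90 CPM, 7.31-fold (95% interval 5.04 to 10.99) higher. The T-type subunit Cacna1i (Cav3.3) had 49 UMIs against 1, a ratio of 28.5 (95% interval 4.88 to 1149) whose width reflects the single UMI. The P/Q-type subunit Cacna1a and the T-type subunit Cacna1g stayed within 2-fold, with ratios of 0.788 and 1.56. The 2 alpha2delta and 3 beta subunits measured were all at least 2-fold higher. The alpha2delta subunit Cacna2d1, the gabapentin receptor, had 113 CPM in excitatory neuron-like and 32.6 CPM in radial glia-like cells, 3.46-fold (95% interval 2.82 to 4.27) higher. The cytoplasmic subunit Cacnb3, the member with the most UMIs of all, had 153 CPM against 46.3 CPM, 3.31-fold (95% interval 2.79 to 3.95) higher. In the Cacng family, Cacng4 (a transmembrane AMPA receptor regulatory protein) was measured and stood at 10.5 CPM against 10.1 CPM, a ratio of 1.04.

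Among voltage-gated potassium channel alpha subunits, 13 of 16 measured were at least 2-fold higher in excitatory neuron-like cells and 0 lower. Kcnv1, an electrically silent subunit (Kv8.1) that modifies Kv2 channels, had 153 UMIs or 26.4 CPM in excitatory neuron-like and 2 UMIs or 0.593 CPM in radial glia-like cells, 44.5-fold (95% interval 12.1 to 371) higher. The Kv1 subunits Kcna1 (Kv1.1) and Kcna6 (Kv1.6), which lie close together on chromosome 6, were 17.5-fold (95% interval 9.06 to 38.6) and 10.6-fold (95% interval 4.37 to 33.4) higher. Kcna1 had 46.6 CPM in excitatory neuron-like cells against 2.67 CPM in radial glia-like cells. Kcnh3 (Kv12.2) was 11.8-fold (95% interval 4.87 to 36.97) higher. Of 7 auxiliary subunits measured, 3 were higher and 1 lower. Kcnab1, a cytoplasmic beta subunit of Kv1 channels, was 10.04-fold (95% interval 3.75 to 37.9) higher, while Kcnip3, a calcium-binding subunit of Kv4 channels also known as DREAM, had 23.5 CPM against 29.4 CPM, a ratio of 0.799. Kcne1l, a KCNE-type single-pass subunit, was the auxiliary subunit that was lower, with 3.45 CPM in excitatory neuron-like and 53.7 CPM in radial glia-like cells, 15.6-fold (95% interval 9.78 to 26.1) lower.

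Of 6 calcium- or sodium-activated potassium channel genes, 5 were at least 2-fold higher. Kcnma1, the BK channel pore, had 21.7 CPM in excitatory neuron-like and 1.48 CPM in radial glia-like cells, 14.7-fold (95% interval 6.12 to 45.9) higher. Kcnn2, an SK channel of the afterhyperpolarization and the gene with the most UMIs in this group, was 2.32-fold (95% interval 1.89 to 2.86) higher. Hcn3, a channel gene of the hyperpolarization-activated cation current, had 37.1 CPM against 10.98 CPM, 3.38-fold (95% interval 2.38 to 4.93) higher. Kcnq1ot1, the imprinted noncoding RNA of the Kcnq1 locus, had 43.7 CPM against 32.04 CPM, a ratio of 1.36. The counting's use of strand is not given in the sources used here, so reads of Kcnq1ot1 and of the gene it overlaps cannot be told apart. The same holds for Kcnmb4 and Kcnmb4os2, whose annotated spans overlap on opposite strands of chromosome 10.

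Of the 4 members that were lower in excitatory neuron-like cells, 3 are potassium channel pore genes, Kcnj10, Kcnk5 and Kcnk10. Kcnj10 (Kir4.1, the potassium-buffering channel of glia, chr1:172341210-172374085, promoter above) had 6 UMIs or 1.04 CPM in 1276 excitatory neuron-like cells, against 247 UMIs or 73.3 CPM in 895 radial glia-like cells, 70.8-fold (95% interval 32.1 to 195) lower. Kcnk5 (TASK-2, chr14:20140057-20181809) had 0 UMIs in excitatory neuron-like and 65 UMIs or 19.3 CPM in radial glia-like cells. With its 0 set to 3 UMIs over the class, it was 37.2-fold lower, a value that depends on this setting. Kcnk10 (TREK-2) had 19.3 CPM against 40.3 CPM, 2.09-fold (95% interval 1.61 to 2.70) lower. Other genes of the same families went the other way or stayed level. The G protein-gated Kcnj3 (GIRK1) had 52.5 CPM in excitatory neuron-like and 6.82 CPM in radial glia-like cells, 7.69-fold (95% interval 5.03 to 12.3) higher. Kcnk2 (TREK-1), the two-pore channel with the most UMIs, had 32.3 CPM against 33.5 CPM, a ratio of 0.963 (95% interval 0.758 to 1.23).

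The series was then read step by step. In intermediate progenitor-like over radial glia-like cells, 31 members were measured, of which 11 were at least 2-fold higher and 2 lower, against 5.55% and 7.54% of all genes. The median log2 ratio was 0.84 over the members and -0.05 over all genes. Of the 11 higher members, 3 had an interval wholly above 2. The SK channel gene Kcnn1 had 25.3 CPM in intermediate progenitor-like and 5.64 CPM in radial glia-like cells, 4.50-fold (95% interval 2.63 to 8.02) higher, with 7.07-fold in the first and 1.92-fold in the second run. Scn3a had 47.5 CPM against 21.1 CPM, 2.26-fold (95% interval 1.65 to 3.09) higher. Calcium channel genes made up 5 of the 11: Cacna2d1 (2.80-fold), Cacna1c (2.70-fold), Cacna1b (2.67-fold), the T-type subunit Cacna1h (2.03-fold) and the beta subunit Cacnb1 (2.03-fold). Also higher were the BK beta subunit gene Kcnmb4 at 2.60-fold, Kcnj3 at 2.32-fold and Hcn3 at 2.10-fold. Kcnj10 and Kcnk5 were already lower at this step. Kcnj10 had 27.2 CPM in intermediate progenitor-like and 73.3 CPM in radial glia-like cells, 2.70-fold (95% interval 2.03 to 3.64) lower, and Kcnk5 had 2.72 CPM against 19.3 CPM, 7.10-fold (95% interval 3.09 to 20.1) lower. Cacnb3, Scn3b, Kcnip3, Kcnn2, Kcnk2 and Kcnq1ot1, the most counted members of their groups, had ratios of 1.91, 1.92, 1.46, 1.78, 0.689 and 1.33, all within 2-fold. All 13 members past 2-fold lay on the same side of 1 in both runs, as did 1268 in the first and 1261 in the second run of all 1268 genes past 2-fold.

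The intermediate progenitor-like class joins clusters 7 and 13, which differ in depth and in channel levels. Of the 235 cells of cluster 13, 95 had doublet scores in the top 5% of all cells, against 5 of the 292 cells of cluster 7. The median cell held 5332 UMIs in cluster 13 and 2755 UMIs in cluster 7. Scn3a had 58.7 CPM in cluster 13, 30.1 CPM in cluster 7 and 21.1 CPM in radial glia-like cells, while Cacna2d1 was high in both clusters, with 88.4 and 96.2 CPM against 32.6 CPM in radial glia-like cells. With the 264 cells of highest doublet score left out, 27 members were measured in place of 31, and 2 in place of 11 were at least 2-fold higher. The log2 ratio of Cacna1c was then 0.47 in place of 1.43, that of Cacna2d1 1.58 in place of 1.49 and that of Kcnn1 2.23 in place of 2.17. The part of doublets in these levels was not tested further.

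In migrating excitatory neuron-like over intermediate progenitor-like cells, 6 of 31 measured members were at least 2-fold higher and 4 lower, against 2.94% and 9.41% of all genes. Medians of the log2 ratio were 0.48 over the members and -0.10 over all genes. Of the 6 higher members, 2 had an interval wholly above 2. The K-ATP channel pore Kcnj11 (Kir6.2) had 58.1 CPM in migrating excitatory neuron-like and 18.1 CPM in intermediate progenitor-like cells, 3.21-fold (95% interval 2.21 to 4.74) higher. Scn3a had 125 CPM against 47.5 CPM, 2.63-fold (95% interval 2.08 to 3.35) higher, and Kcnn1 had 58.7 CPM against 25.3 CPM, 2.31-fold (95% interval 1.66 to 3.26) higher. Kcnk2, Kcnj3 and Cacna1c were 2.44-, 2.43- and 2.003-fold higher. Among the lower members were Kcne1l, 9.49-fold (95% interval 4.41 to 24.3), and Kcnj10, 4.42-fold (95% interval 2.30 to 9.32), together with Kcnip1, a Kv4 subunit, 2.10-fold. With the high doublet scores left out, 13 members in place of 6 were higher. Of the 10 members past 2-fold, 9 lay on the same side of 1 in both runs. Of all 1075 genes past 2-fold, 1074 did so in the first and 1060 in the second run. Among the most counted members of their groups, Cacna2d1 was at 1.79-fold, Scn3b at 1.68-fold and Kcnip3 at 0.624-fold. Cacna1b, Cacnb3, Kcnn2, Hcn3 and Kcnq1ot1 were also within 2-fold, with ratios of 0.901, 1.44, 1.21, 1.23 and 0.840.

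The third step was excitatory neuron-like over migrating excitatory neuron-like cells, with 22 of 57 measured members at least 2-fold higher and 2 lower, against 8.71% and 3.26% of all genes. Medians of the log2 ratio were 0.65 and 0.01. Of the 22 higher members, 12 had an interval wholly above 2. The numbers measured differ between the steps, since the classes differ in size. The largest ratio was that of Kcna6, which had 91 UMIs in excitatory neuron-like cells and 1 UMI in migrating excitatory neuron-like cells, 28.1-fold (95% interval 4.92 to 1122) higher. Kcnv1 was 23.6-fold (95% interval 6.43 to 197) higher, the Kv4 subunit Kcnip2 15.8-fold (95% interval 2.70 to 634) and Kcnab1 10.7-fold (95% interval 2.84 to 89.8). Kcnq5 (Kv7.5), a subunit of the M-current channels that restrain repetitive firing, had 25.9 CPM against 2.79 CPM, 9.27-fold (95% interval 3.88 to 28.95) higher. Kcnk1 (TWIK-1) and Kcnma1 were 8.13- and 4.32-fold higher. Kcnu1, known as the Slo3 channel of sperm, had 14.3 CPM in excitatory neuron-like and 3.35 CPM in migrating excitatory neuron-like cells, 4.27-fold (95% interval 1.88 to 11.98) higher.

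Sodium channel genes went both ways at this step, while the 3 calcium channel alpha1 subunits past 2-fold were all higher. Cacna1e (Cav2.3, R-type) was 15.1-fold (95% interval 2.59 to 609.9) higher and Cacna1d (Cav1.3, L-type) had 43.1 CPM in excitatory neuron-like and 7.82 CPM in migrating excitatory neuron-like cells, 5.52-fold (95% interval 3.23 to 10.2) higher. Cacna1b was 3.10-fold (95% interval 2.29 to 4.30) and Cacng4 4.71-fold (95% interval 1.75 to 17.8) higher. Scn2a1 had 109.6 CPM against 21.2 CPM, 5.16-fold (95% interval 3.72 to 7.36) higher, with 3.52-fold in the first and 6.53-fold in the second run. Scn3a did not move past 2-fold, with 109.9 CPM in excitatory neuron-like and 125 CPM in migrating excitatory neuron-like cells, a ratio of 0.878 (95% interval 0.753 to 1.03). Scn1a (Nav1.1) had 5.69 CPM against 21.2 CPM, 3.73-fold (95% interval 2.28 to 6.13) lower, and Kcnn1 26.1 CPM against 58.7 CPM, 2.25-fold (95% interval 1.74 to 2.91) lower. Of Cacna2d1, Cacnb3, Scn3b, Kcnip3, Kcnn2, Kcnj3, Kcnk2, Hcn3 and Kcnq1ot1, the most counted members of their groups, the ratios were 0.689, 1.21, 2.24, 0.875, 1.08, 1.36, 0.572, 1.30 and 1.22. All 24 members past 2-fold lay on the same side of 1 in both runs, as did 1146 in the first and 1144 in the second run of all 1152 genes past 2-fold.

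Scn3a and Scn2a1 passed 2-fold at different steps. Along radial glia-like, intermediate progenitor-like, migrating excitatory neuron-like and excitatory neuron-like cells, the share of Scn3a in the UMIs of all sodium channel alpha genes was 29.5%, 40.1%, 56.9% and 36.5%. The share of Scn2a1 was 16.2%, 15.3%, 9.64% and 36.3%, so it was highest at the end of the series. In inhibitory neurons Scn2a1 kept a low share, 12.2% (95% interval 9.63 to 15.2) in interneuron-like and 11.6% (95% interval 7.57 to 16.8) in striatal neuron-like cells.

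**Figure D3:**
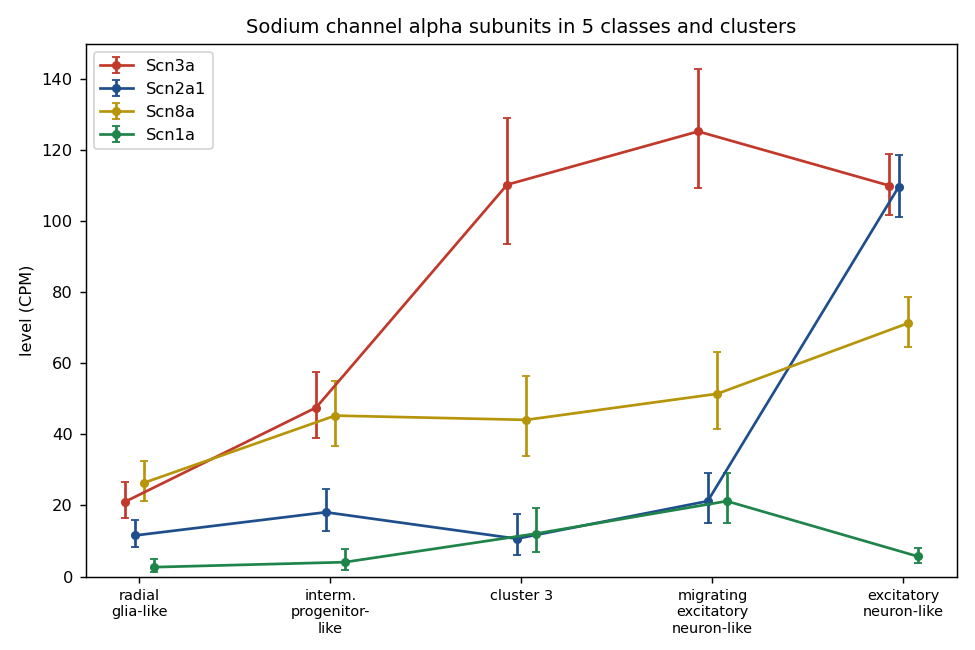
Level (CPM, y axis) of Scn3a, Scn2a1, Scn8a and Scn1a with exact 95% Poisson intervals in radial glia-like, intermediate progenitor-like, cluster 3, migrating excitatory neuron-like and excitatory neuron-like cells (x axis); lines join the values of a gene and say nothing of descent, and genes are not compared with each other. Scn3a is at 125 CPM in migrating excitatory neuron-like cells, where Scn2a1 is at 21.2 CPM, and Scn2a1 reaches 109.6 CPM in excitatory neuron-like cells.

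On the inhibitory side, interneuron-like over ganglionic eminence progenitor-like cells gave 22 of 35 measured members at least 2-fold higher and 2 lower, against 9.78% and 12.2% of all genes. Medians of the log2 ratio were 1.23 and -0.03. Of the 22 higher members, 14 had an interval wholly above 2. Cacng3, a transmembrane AMPA receptor regulatory protein, had 124 UMIs or 60.3 CPM in interneuron-like and 2 UMIs or 1.44 CPM in ganglionic eminence progenitor-like cells, 41.8-fold (95% interval 11.3 to 349) higher. Its relative Cacng2 (stargazin) was 8.10-fold (95% interval 3.28 to 25.8) higher. Kcnip1 had 56.9 CPM against 2.88 CPM, 19.7-fold (95% interval 7.51 to 73.7) higher. The beta subunit Cacnb4 was 7.05-fold (95% interval 4.45 to 11.8) higher, Cacna2d2 5.40-fold (95% interval 2.69 to 12.3) and Cacna1b 4.96-fold (95% interval 3.28 to 7.78), with Cacnb1 at 3.73-fold and Cacna2d3 at 3.43-fold. Scn3a had 163 CPM in interneuron-like and 37.5 CPM in ganglionic eminence progenitor-like cells, 4.33-fold (95% interval 3.23 to 5.92) higher. Potassium channel genes among the largest ratios were Kcnh3 (6.21-fold), the BK beta subunit Kcnmb2 (5.59-fold), Kcnc2 (Kv3.2, 4.36-fold) and Kcnd3 (Kv4.3, 3.04-fold). The lower members were Kcnj10, with 0.973 CPM in interneuron-like and 39.7 CPM in ganglionic eminence progenitor-like cells, 40.7-fold (95% interval 10.8 to 345) lower, and Kcne1l, with 11.7 CPM against 61.3 CPM, 5.25-fold (95% interval 3.30 to 8.64) lower. The progenitor class joins clusters 15 and 17, and Kcnj10 had 7.77 CPM in cluster 15 and 79.8 CPM in cluster 17, so most of its level came from cluster 17. Kcne1l had 37.5 CPM in cluster 15 and 91.2 CPM in cluster 17. Cluster 17 was led by Olig2, Olig1 and Aldh1l1 and scored almost as high on the oligodendrocyte precursor markers as on those of its name (1.32 against 1.44). With clusters drawn on the other UMIs, 149 of its 172 cells fell in the radial glia-like class, and Kcnj10 was left with 0 UMIs in interneuron-like and 3 UMIs in ganglionic eminence progenitor-like cells, which gives no call. Both genes were also lower in excitatory neuron-like than in radial glia-like cells. Of Cacna2d1, Cacnb3, Scn3b, Kcnn2, Kcnk2, Hcn3 and Kcnq1ot1, the most counted members of their groups, the ratios were 0.971, 1.74, 3.67, 1.09, 1.34, 2.74 and 2.13.

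In striatal neuron-like over ganglionic eminence progenitor-like cells, 12 of 20 measured members were at least 2-fold higher and 3 lower, against 9.2% and 14.8% of all genes, with medians of the log2 ratio of 1.41 and -0.05. Both comparisons share the progenitor class. Of the 12 higher members, 8 had an interval wholly above 2. Kcnd2 (Kv4.2, an A-type channel) had 51.7 CPM in striatal neuron-like and 11.5 CPM in ganglionic eminence progenitor-like cells, 4.48-fold (95% interval 2.42 to 8.64) higher. Scn3a was 4.71-fold (95% interval 3.38 to 6.64) higher, and the calcium channel genes Cacnb4, Cacna1b, Cacna1c, Cacna1h, Cacnb1 and Cacnb3 were 4.78-, 3.90-, 3.71-, 3.54-, 3.20- and 2.79-fold higher. Kcnn1, Scn3b and Kcnmb4 were 2.95-, 2.54- and 2.44-fold higher. Kcnj10 had 1 UMI in striatal neuron-like cells against 55 in ganglionic eminence progenitor-like cells, 27.6-fold (95% interval 4.76 to 1111) lower. In the first run it had 0 UMIs against 42, 7.22-fold lower with 3 UMIs in place of 0, a value that depends on this setting. With clusters drawn on the other UMIs the call ended at 0 UMIs in striatal neuron-like against 3 UMIs in ganglionic eminence progenitor-like cells, a log2 ratio of 0.32 once the 0 is set to 3 UMIs. Kcne1l was 21.4-fold (95% interval 5.73 to 179) and Kcnn2 2.14-fold (95% interval 1.12 to 4.40) lower. Cacna2d1 and Kcnk2 were within 2-fold, with ratios of 0.583 and 0.713. Striatal neuron-like and ganglionic eminence progenitor-like cells numbered 18 and 28 in the second run, too few for a value there. Within the first run, all 24 called members of the interneuron-like comparison and all 15 of the striatal one lay on the same side of 1. So did all 1886 and all 1745 genes past 2-fold in these comparisons.

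Interneuron-like over excitatory neuron-like cells sets both neuron classes side by side. Of 62 measured members, 10 were at least 2-fold higher in interneuron-like cells and 19 at least 2-fold lower, against 5.8% and 7.42% of all genes. Medians of the log2 ratio were -0.31 and 0.04. Of the 10 higher members, 7 had an interval wholly above 2. Cacng3 had the largest ratio, with 60.3 CPM in interneuron-like and 1.38 CPM in excitatory neuron-like cells, 43.7-fold (95% interval 21.5 to 103) higher. The ratio was 54.1 in the first and 55.2 in the second run. Kcnmb2 had 28.2 CPM against 1.38 CPM, 20.4-fold (95% interval 9.72 to 49.6) higher, with 6.01- and 67.8-fold in the first and second run. Kcnc2, the Kv3.2 channel known from fast-spiking and other interneurons, had 40.9 CPM in interneuron-like and 2.07 CPM in excitatory neuron-like cells, 19.7-fold (95% interval 10.7 to 39.7) higher. Scn1a had 20.4 CPM against 5.69 CPM, 3.59-fold (95% interval 2.22 to 5.84) higher. Kcnh4 (Kv12.3), Cacna2d2, Cacng2, Kcnip1, Kcnd3 and Kcnk2 were 6.77-, 6.15-, 3.85-, 2.56-, 2.01- and 2.01-fold higher.

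The members that were lower in interneuron-like cells include genes of the Kv1 and Kv7 families. Kcna1 had 4.38 CPM in interneuron-like and 46.6 CPM in excitatory neuron-like cells, 10.6-fold (95% interval 5.52 to 23.5) lower, and Kcna6 and Kcna4 (Kv1.4) were 3.59-fold and 3.26-fold lower. Kcnq3 and Kcnq5 were 8.87-fold (95% interval 2.33 to 75.2) and 6.65-fold (95% interval 3.29 to 15.7) lower. Both Kir genes measured were lower: Kcnj3 had 5.35 CPM in interneuron-like and 52.5 CPM in excitatory neuron-like cells, 9.80-fold (95% interval 5.40 to 19.8) lower, and Kcnj11 had 7.79 CPM against 43.8 CPM, 5.63-fold (95% interval 3.40 to 9.9998) lower. Among calcium channel genes, Cacna2d1, Cacna1d and Cacna1e were 3.93-fold, 4.93-fold and 2.90-fold lower. Scn2a1 had 34.1 CPM in interneuron-like and 109.6 CPM in excitatory neuron-like cells, 3.22-fold (95% interval 2.51 to 4.18) lower. Scn3a, Scn3b, Cacna1b, Cacnb3, Cacng4, Hcn3 and Kcnq1ot1 were within 2-fold, with ratios of 1.48, 0.635, 1.17, 0.738, 1.20, 0.800 and 0.669. Kcnv1, Kcnab1, Kcnip3, Kcnmb4 and Kcnn2 were 6.03-fold, 2.72-fold, 2.19-fold, 2.06-fold and 2.03-fold lower. Kcna2 (Kv1.2), named after its values were seen, was 2.06-fold (95% interval 1.04 to 4.51) lower but had a ratio of 1.27 in the second run. The other 28 of the 29 members past 2-fold kept their side of 1 in both runs. Of all 1299 genes past 2-fold, 1297 kept it in the first and 1248 in the second run.

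**Figure D4:**
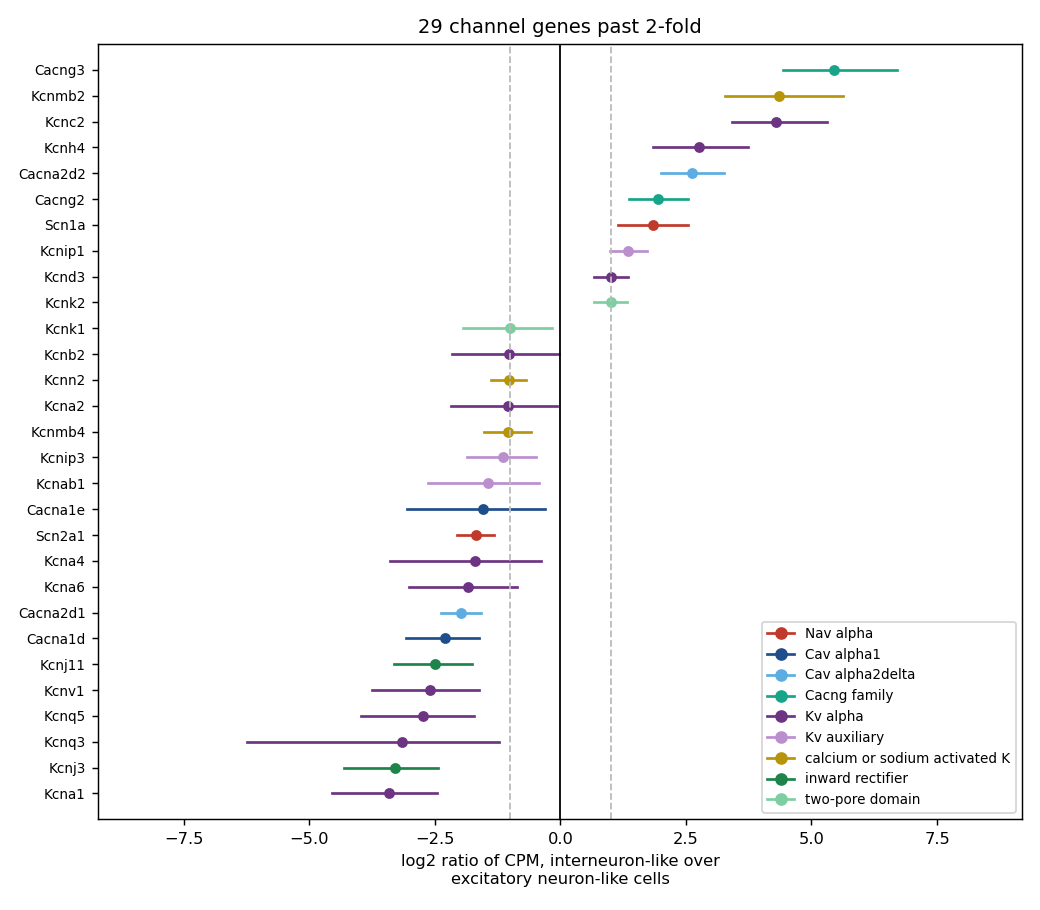
Ratio of CPM in interneuron-like over excitatory neuron-like cells (x axis, log2 scale) for the 29 members past 2-fold, sorted by ratio and coloured by role, with exact 95% intervals and dashed lines at 2-fold. Cacng3, Kcnmb2 and Kcnc2 lie farthest to the interneuron-like side, at 43.7-, 20.4- and 19.7-fold, and Kcna1 and Kcnj3 farthest to the other.

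Members also differed among clusters of the same class. In cluster 16, the interneuron-like cluster that expresses Sst, Cacng3 had 144 CPM against 2.90 CPM in all other cells, 49.7-fold (95% interval 35.3 to 70.3) higher. There Kcnmb2 had 59.1 CPM against 2.95 CPM, 20.03-fold (95% interval 12.8 to 30.9) higher. Cluster 6, also interneuron-like, had 51.3 CPM of Cacng3 and 26.3 CPM of Kcnmb2, 10.2- and 7.22-fold over all other cells, so neither gene was particular to cluster 16. These ratios against the rest are descriptions of clusters that were drawn without these genes. Within excitatory neuron-like cells, deep layer-like cells (cluster 4) had 35.1 CPM of Kcnab1, against 2.98 CPM in upper layer-like cells (cluster 14). Most upper layer-like cells are of the second run, so both were compared within it, in 182 deep layer-like and 212 upper layer-like cells, over 42 members with at least 20 UMIs in both together. Kcnip2 had 22 UMIs in deep layer-like and 0 in upper layer-like cells. That is 10.1-fold higher with 3 UMIs in place of 0, and the 95% interval starts at 7.51. Kcnab1 had 22 UMIs against 3, 10.1-fold (95% interval 3.02 to 52.5) higher, as did Kcnk1. Kcna6, Kcnip1 and Kcnv1 were 5.49-, 3.70- and 3.51-fold higher in deep layer-like cells. The other way, Cacna2d1 had 64.9 CPM in deep layer-like and 176 CPM in upper layer-like cells, 2.71-fold (95% interval 1.95 to 3.84) higher in the upper layer-like cells. Kcnk2 had 18.4 CPM against 58.7 CPM, 3.20-fold (95% interval 1.73 to 6.36) higher in upper layer-like cells. Kcnb2 (Kv2.2), with 4 UMIs against 17, was 3.10-fold (95% interval 1.01 to 12.7) higher there. Kcnq5, with 10 UMIs against 40, was 2.92-fold (95% interval 1.43 to 6.54) higher there. Shares over all genes were not computed for deep over upper layer-like cells.

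Among 12 named classes and unnamed clusters of at least 50 cells, the 71 Cajal-Retzius cell-like cells had the highest CPM of 19 of the 77 members with at least 50 UMIs. Set against the single clusters within classes, 16 of the 19 were still highest there, while Scn3a and Cacna1g were higher in cluster 16 and Cacna1i in cluster 4. Some of these 16 led by small margins, such as Kcnd1 with 12.8 CPM against 11.6 CPM in cluster 7. Kcnab2 had 19.2 CPM against 18.2 CPM in cluster 10. Cajal-Retzius cell-like cells were the smallest of the 12 groups, with 313023 UMIs, and the same share was not computed over all genes. The genes named here and for the small classes were chosen after their values were seen. Cacna2d2, an alpha2delta subunit of calcium channels (chr9:107399612-107529343), had 786 CPM in Cajal-Retzius cell-like cells and 11.7 CPM in all other cells, 67.2-fold (95% interval 56.1 to 80.4) higher. It was found in 62 of 71 such cells and 192 of 5702 others, and 49.7% of its UMIs came from them. Its level was 667 CPM in the 54 cells of the first and 1219 CPM in the 17 of the second run. The other alpha2delta genes were also high, Cacna2d3 with 208 CPM against 17.2 CPM and Cacna2d1 with 530.3 CPM against 93.6 CPM. Summed, the 3 alpha2delta genes had 1524 CPM in Cajal-Retzius cell-like cells against 137 CPM in excitatory neuron-like cells. Kcnj5 (GIRK4) had 20 UMIs in 15 Cajal-Retzius cell-like cells and 5 UMIs in the 5702 other cells, 272-fold (95% interval 99.1 to 927) higher. Cacng5 and Kcnip2 were 14.3-fold (95% interval 6.99 to 26.98) and 9.43-fold (95% interval 4.98 to 16.6) higher.

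Some members were found mainly in cells other than neurons and progenitors. Kcne2, an auxiliary subunit known from the choroid plexus epithelium, had 159 UMIs in 10 of 25 choroid plexus-like cells, or 1224 CPM, and was found in 13 of 5748 other cells, with 0.652 CPM. These cells held 91.9% of its UMIs. Kcnj13 had 23 UMIs in 7 choroid plexus-like cells, 177 CPM, against 0.279 CPM elsewhere. Kcnj8 (Kir6.1, known from vascular mural cells) had 24 UMIs in 10 of 29 meningeal fibroblast-like cells and 1 UMI in all others. The endothelial marker list scored almost as high in that cluster. Kcnk6 (TWIK-2) had 10 UMIs in 5 of 18 microglia-like cells and 0 UMIs in any other cell clustered.

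Members were also raised in unnamed clusters, though not only there. In cluster 20, which expresses Crym, Kcnk1 had 100.2 CPM against 7.63 CPM in all other cells, 13.1-fold (95% interval 9.86 to 17.4) higher. In cluster 19, which expresses Lhx8 and Zic4, Scn9a (Nav1.7, best known from pain-sensing neurons) had 38.6 CPM against 3.51 CPM, 11.01-fold (95% interval 6.28 to 18.4) higher, and Kcnd3 had 146 CPM against 36.6 CPM, 3.999-fold (95% interval 3.10 to 5.10) higher. Kcnd3 also had 111 CPM in cluster 16, and Scn9a had 14.4 CPM in cluster 11, 11.4 CPM in cluster 12 and 8.26 CPM in cluster 10. Cluster 19 holds cells of the first run only, so run and cluster cannot be told apart there.

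**Figure D5:**
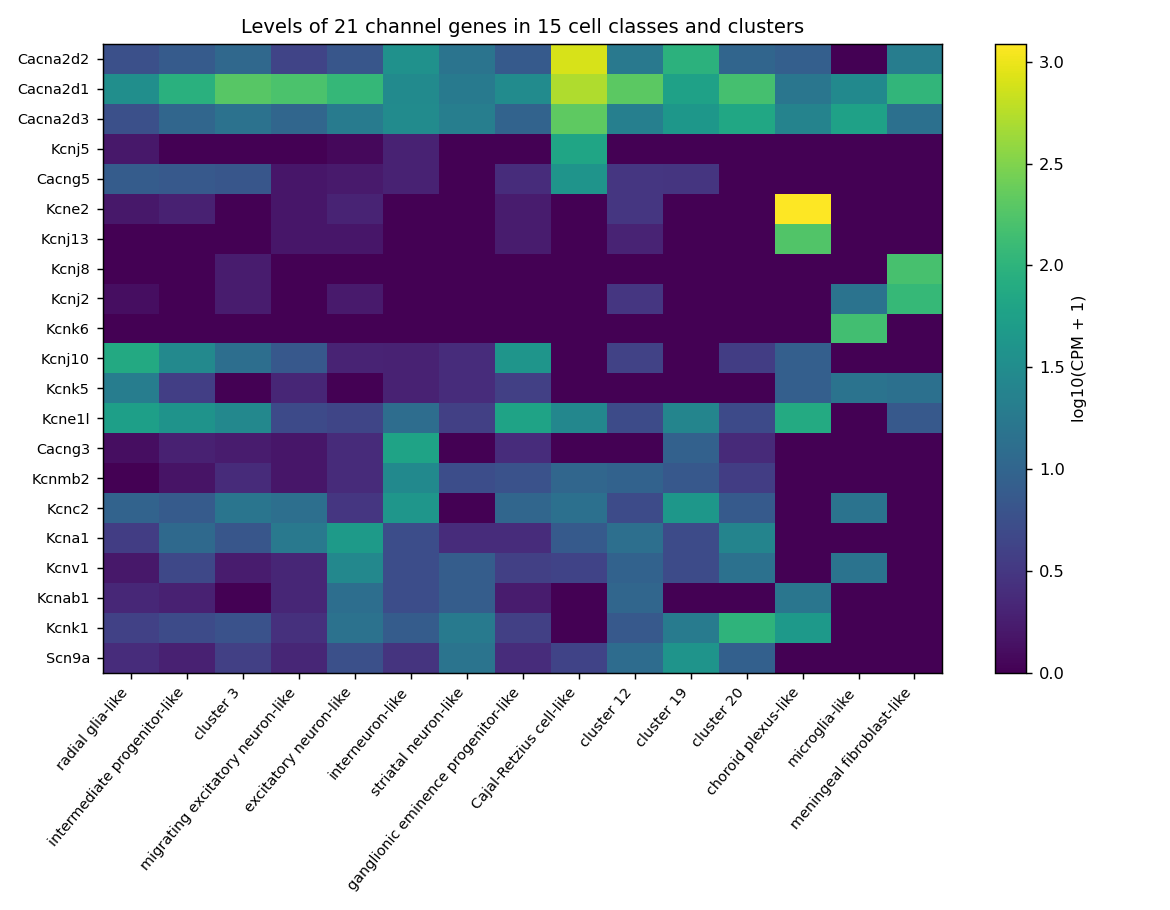
Level of 21 channel genes (rows, chosen after their values were seen) in named classes and clusters 3, 12, 19 and 20 (columns), as log10(CPM + 1), colour. Cacna2d2 is brightest in Cajal-Retzius cell-like cells (786 CPM), Kcne2 in choroid plexus-like, Cacng3 in interneuron-like and Kcnj10 in radial glia-like cells (73.3 CPM).

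Other genes of excitability were read in excitatory neuron-like over radial glia-like cells, in which 15.1% of all genes were at least 2-fold higher and 19.4% lower. Of 20 channel partners measured, 11 were at least 2-fold higher and 0 lower, with a median log2 ratio of 1.88. The largest ratio belonged to Abcc8, the sulfonylurea receptor that assembles with the Kcnj11 product into K-ATP channels, with 55.4 CPM in excitatory neuron-like and 3.26 CPM in radial glia-like cells, 16.98-fold (95% interval 9.36 to 34.4) higher, and the smallest to the anchoring protein Akap5, at 0.628. In interneuron-like over excitatory neuron-like cells, Abcc8 was 18.97-fold (95% interval 8.62 to 52.1) lower, beside Kcnj11 at 5.63-fold (95% interval 3.40 to 9.9998) lower. Of 13 axon initial segment genes, 9 were higher and 1 lower, with a median log2 ratio of 1.46. Ank3, whose product ankyrin-G anchors sodium channels there, had 722 CPM against 78.01 CPM, 9.25-fold (95% interval 8.17 to 10.5) higher, and Camk2d was 9.82-fold (95% interval 6.83 to 14.5) lower. Of 13 ion pump and chloride cotransporter genes, 3 were higher and 3 lower, with a median log2 ratio of 0.14. That median was 0.31 in the first and -0.16 in the second run.

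Of 18 calcium release and extrusion genes, 13 were at least 2-fold higher in excitatory neuron-like than in radial glia-like cells and 0 lower, with a median log2 ratio of 2.13. The calcium sensor Hpcal4 had the largest ratio, 47.7-fold (95% interval 8.33 to 1907), on 1 UMI in radial glia-like cells, and Hpcal1 the smallest, 0.648. Of 13 genes of the REST repressor complex, which is known to silence neuronal genes, sodium channel genes among them, in cells other than neurons, 0 were higher and 4 lower, with a median log2 ratio of -0.24. Rest itself had 2.24 CPM in excitatory neuron-like and 20.5 CPM in radial glia-like cells, 9.12-fold (95% interval 5.0001 to 17.99) lower. The largest ratio of that list was that of Ehmt1, 1.92. The median log2 ratio of the list was 0.12 in the first and -0.14 in the second run.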

How the data were processed

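RNA of single forebrain cells was measured in 16 samples with the same labels. The authors deposited raw UMI counts of each gene in each cell as 1 matrix. The submitters' processing notes name the build mm10. The sources used here do not give an aligner, counting tool, use of strand or annotation. The counts are whole numbers and no cell is tied to a sample, so nothing could be tested between samples. Precision comes from the UMIs behind a value, given by exact Poisson, Clopper-Pearson and conditional binomial 95% intervals, which cover counting error only.

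Counts were scaled to 10000 per cell and log transformed, and 2000 variable genes (without channel genes, the other listed genes, ribosomal protein and sex-linked genes) gave 30 principal components, 15 neighbours and Leiden clusters at resolution 1 (Python 3.11.15, scanpy 1.11.5, leidenalg 0.10.2, scikit-learn 1.9.0, numpy 2.4.6, scipy 1.17.1, pandas 2.3.3, matplotlib 3.10.9). Clusters were named from 21 marker lists, by a mean log2 difference of at least 0.4 with at least 3 markers raised; these limits were set after the lists had been seen with the clusters. Doublets were kept, and removing the 264 cells with the highest scores was an alternative. UMIs were summed per class and expressed as CPM. A gene was measured in a comparison with at least 50 UMIs over both classes, and called past 2-fold; a sum of 0 was set to 3 UMIs.

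Genes were named by rule: up to 15 largest and 15 smallest ratios past 2-fold, the most counted member of each group, and the largest and smallest ratio of each list of other genes. Some genes that the rule names, and 1 promoter sequence, are not reported here. Members and lists were chosen with earlier results of these data known. The steps were tested on simulated counts. Positions are from GENCODE M21 (mm10, counted from 1), in which all 108 members were found, Scn2a1 as Scn2a.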

Additional observations from a re-analysis of the deposited data

How the results depend on the processing

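Nothing here rests on replicates, and a class summed from few UMIs limits which members are measured. No paired analysis was possible because cells carry no sample and the 16 samples form 1 pool. Each gene ratio reported by the naming rule was recomputed under every alternative that left enough UMIs. Of 2003 values for 157 ratios, 1831 stayed within their counting interval, 171 left it on the same side of 1, and 1 turned, that of Kcnj10 in striatal neuron-like over ganglionic eminence progenitor-like cells with clusters drawn on the other UMIs (log2 ratio 0.32, on 0 UMIs set to 3 against 3 UMIs). Of the 117 ratios past 2-fold, 39 were under 2-fold in at least 1 alternative. Requiring a marker score of at least 0.5 was an alternative chosen after seeing the data. Values for the second run were not run for comparisons with ganglionic eminence progenitor-like cells.

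Counts of members past 2-fold stayed within 1.5 times of the reported count under 153 of 206 alternatives. With clusters drawn on a random 50% of the UMIs and levels read from the others (fewer UMIs and so fewer members measured), the counts higher and lower were 26 and 2 in excitatory neuron-like over radial glia-like cells, 7 and 1 in intermediate progenitor-like over radial glia-like cells, 14 higher in excitatory neuron-like over migrating excitatory neuron-like cells, 2 lower in migrating excitatory neuron-like over intermediate progenitor-like cells, 12 and 0 in interneuron-like over ganglionic eminence progenitor-like cells, 3 and 0 in striatal neuron-like over ganglionic eminence progenitor-like cells, and 6 and 11 in interneuron-like over excitatory neuron-like cells. In the first run alone, which also holds fewer UMIs, they were 26 and 2, 1 lower, 12 higher, 0 lower, 14 and 1, and 5 and 12 in the order above, leaving out the striatal comparison. In the second run they were 26 higher in excitatory neuron-like over radial glia-like, 3 higher in intermediate progenitor-like over radial glia-like, 13 higher and 0 lower in excitatory neuron-like over migrating excitatory neuron-like and 12 lower in interneuron-like over excitatory neuron-like cells. With at least 20 UMIs, 8 were lower in excitatory neuron-like over radial glia-like, 6 in intermediate progenitor-like over radial glia-like and 4 in excitatory neuron-like over migrating excitatory neuron-like cells, 12 higher in migrating excitatory neuron-like over intermediate progenitor-like cells and 22 higher in the striatal comparison.

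Counts that involve intermediate progenitor-like cells moved under several settings. The count of 11 higher over radial glia-like cells became 2 without the highest doublet scores, 6 with cells weighted equally, 7 with 1000 features and 19 at 1.5-fold, and 2 lower became 4 with listed genes as features. For migrating excitatory neuron-like over intermediate progenitor-like cells, 6 higher became 13 without the highest doublet scores, 13 with 1000 features, 3 with 15 components, 11 at resolution 0.5 and 14 at 1.5-fold, and 4 lower became 2 when every cluster took its best class. For excitatory neuron-like over migrating excitatory neuron-like cells, 2 lower became 4 at 1.5-fold, 1 with 15 components and 5 with 1000 features. For interneuron-like over ganglionic eminence progenitor-like cells, 2 lower became 1 at resolution 0.5, with 15 components, with listed genes as features or without the highest doublet scores, and 0 with 1000 features. For the striatal comparison, 3 lower became 5 at 1.5-fold and 0 with 15 components or 1000 features. The cause of these shifts was not tested.

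Over all alternatives the summed level ran from 2198 to 2373 CPM in excitatory neuron-like and from 808 to 978 CPM in radial glia-like cells.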
